A study of Mus musculus with 10 samples.

Results

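The genes described here are 32 genes of the cell division cycle, chosen by symbol: 12 of DNA replication and its onset, 19 of G2 and mitosis, and the G1 cyclin gene Ccnd1. All 32 matched an Ensembl identifier among the 48526 rows of the count table. The libraries were labelled aortic endothelial cells of ApoE mice (no more of the genotype is given), isolated by fluorescence-activated cell sorting. A group of 5 came from mice put under acute mental stress daily on 3 consecutive days, 3 h each time, and a group of 5 from mice without stress; age and sex are not given. The series asked how stress alters endothelial cells. It is not stated whether a replicate is 1 mouse or a pool, and a p-value here covers only how far these samples spread, which may be technical.

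The labelled cell type was not matched by its defining markers. The endothelial genes Cdh5 and Kdr reached at most 0.994 and 2.35 CPM (counts scaled to a library total of 1000000). Csf1r and Lyz2, which define monocytes and macrophages, stood at 2323 to 2766 and 15692 to 26749 CPM in the 10 libraries. Every level below is therefore one of libraries so labelled that carried myeloid transcripts. Totals ran from 18020220 to 38237346 counts a library, so that 3 counts, the limit that a count of 0 allows, equal 0.0785 to 0.166 CPM (counting error only).

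A cell that prepares to divide loads the MCM helicase, a ring built of the products of Mcm2 to Mcm7, onto replication origins in G1. Cyclin E then drives entry into S phase, where the sliding clamp PCNA holds polymerases on DNA and ribonucleotide reductase and thymidylate synthase supply the precursors. Cyclin A, cyclin B and the kinase CDK1 carry the cell into mitosis, in which Aurora and Polo-like kinases, kinesins and the spindle checkpoint move the chromosomes. Transcripts of the first set accumulate around the start of S phase under E2F factors, and those of the second in G2 through the CHR element (cell cycle genes homology region), which the MuvB core of the DREAM complex binds. Circulating monocytes divide rarely, and their dividing precursors sit mainly in the bone marrow.

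The promoters of both sets were searched for these elements. RefSeq's promoter table (GRCm38.p6, 250 bases before to 50 after each start) held 26 windows for 25 of the 32 genes; Aurkb, Ccna2, Ccnd1, Ccne2, Kif20a, Mcm4 and Tpx2 had none. The CHR element was searched as TTTGAA and TTCGAA, the E2F site as TTTCCCGC, TTTGGCGC, TTTCGCGC and TTTGCCGC, and the CCAAT box as CCAAT, each on both strands. No CHR match overlapped an E2F match in these windows (0 overlaps). A CHR match stood in 11 of 15 mitosis windows and 2 of 11 replication windows, beside 19.2% of all 32851 windows. An E2F match stood in 1 mitosis window, that of Cdk1, and in 4 replication windows, those of Mcm3, Mcm5, Mcm6 and Mcm7, beside 2.26% of all. CCAAT was in 13 mitosis and 9 replication windows, beside 37.4% of all. A match is a run of letters and not a shown binding site.

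Printed here are stretches of 5 promoters, chosen to show the E2F matches of 2 helicase genes and the CHR matches of 3 mitosis genes. Each begins 160 bases before the start and ends at the start or before the first GENCODE exon. Letters run 5′ to 3′ on the gene's strand, and capitals mark E2F matches in Mcm6 and Mcm5, CHR matches in Cdc20 and Mki67, and both in Cdk1.
Mcm6 (chr1:128359706-128359865, minus strand): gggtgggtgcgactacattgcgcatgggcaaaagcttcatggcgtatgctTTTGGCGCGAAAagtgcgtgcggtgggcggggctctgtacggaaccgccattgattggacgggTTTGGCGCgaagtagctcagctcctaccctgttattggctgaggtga
Mcm5 (chr8:75109349-75109508, plus strand): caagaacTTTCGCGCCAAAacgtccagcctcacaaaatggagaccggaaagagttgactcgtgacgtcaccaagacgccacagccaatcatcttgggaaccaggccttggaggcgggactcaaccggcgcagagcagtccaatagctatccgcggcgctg
Cdk1 (chr10:69352939-69353072, minus strand): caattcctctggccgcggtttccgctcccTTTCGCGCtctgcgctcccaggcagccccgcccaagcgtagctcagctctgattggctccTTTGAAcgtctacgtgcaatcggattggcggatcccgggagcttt
Cdc20 (chr4:118437353-118437503, minus strand): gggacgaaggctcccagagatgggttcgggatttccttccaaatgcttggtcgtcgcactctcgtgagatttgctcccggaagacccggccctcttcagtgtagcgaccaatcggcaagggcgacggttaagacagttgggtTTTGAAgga
Mki67 (chr7:135716380-135716539, minus strand): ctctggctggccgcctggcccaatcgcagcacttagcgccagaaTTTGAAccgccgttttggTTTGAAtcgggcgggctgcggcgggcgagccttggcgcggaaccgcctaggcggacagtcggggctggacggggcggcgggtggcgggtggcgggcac
In Mcm6 and Mcm5 the long capital run is a pair of overlapping E2F matches on opposite strands. In Cdk1 the first capital run is the E2F match, 131 bases before the start, and the next is a CHR match 71 bases before it. A further CHR match of Cdk1, 15 bases before the start, lies in a GENCODE exon and is not printed.

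**Figure D1:**
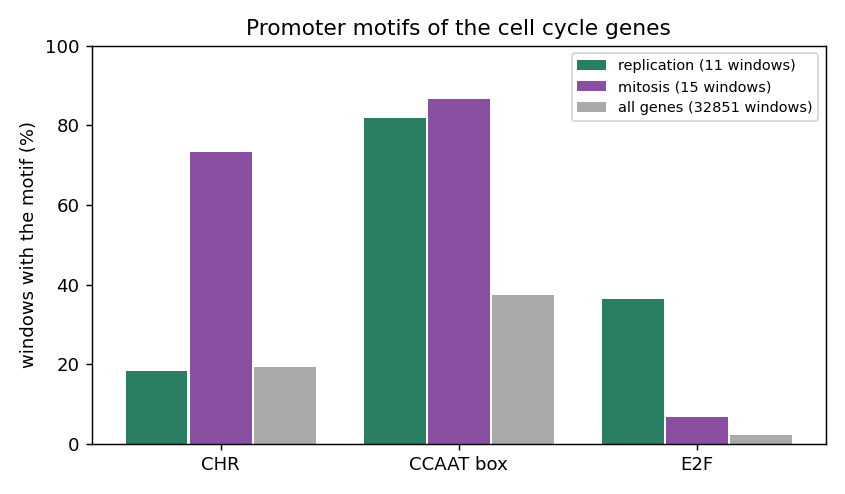
Share of promoter windows (percent, vertical axis) that hold a CHR, CCAAT or E2F match, for replication genes (11 windows), mitosis genes (15 windows) and all genes (32851 windows). CHR matches stand in 11 of 15 mitosis windows and 2 of 11 replication windows; E2F matches stand in 1 and 4.

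Replication transcripts were found in nearly all libraries, while many mitosis transcripts were missing from some: 11 of 12 replication genes and 6 of 19 mitosis genes had reads in every library. To compare genes, levels were taken as CPM per kb of exon (all annotated exons of a gene merged). The order of genes therefore depends on the annotated length, which was 11 kb for Rrm1 and 2.95 kb for Aurkb. In plain CPM the means of Rrm1 and Aurkb were alike, at 11 and 10.6 without stress and 9.18 and 9.49 with stress. The clamp gene Pcna led at 25.6 ± 1.93 CPM per kb (SD, n = 10 libraries), followed by Mcm4 at 7.98 ± 2.58 and Mcm3 at 5.33 ± 1.09. Cdk1, the kinase that starts mitosis, was the lowest of the 32 at 0.0207 ± 0.0411 CPM per kb. The mean over the 12 replication genes exceeded that over the 19 mitosis genes in every library, by 5.14 to 9.04 times. That ratio was 7.23 ± 1.60 without stress and 7.51 ± 1.29 with stress (SD, n = 5 each), a difference smaller than the spread within either group. Pcna weighs most in the replication mean. The median over the genes of a set was 1.08 to 2.36 CPM per kb for replication and 0 to 0.370 for mitosis in the 10 libraries. Mcm2 (0.998), Ccne1 (0.558), Ccne2 (0.631), Rrm1 (0.914), Rrm2 (0.459) and Tyms (0.223 CPM per kb) lay below the mitosis genes Aurkb, Mki67 and Bub1b. In such bulk libraries fewer cells of a type and less RNA per cell cannot be told apart.

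Not all mitosis genes were low. Aurkb, the kinase of the chromosomal passenger complex, stood at 3.41 ± 0.814 CPM per kb (SD, n = 10), a level beside that of Mcm7 (3.39 ± 1.08) and within its spread. Mki67, whose protein coats mitotic chromosomes and serves as the usual proliferation marker, stood at 2.41 ± 0.638 CPM per kb, and the checkpoint gene Bub1b at 1.52 ± 0.434. Birc5, the survivin partner of Aurkb in the same complex, stood at 0.231 ± 0.196 CPM per kb and had no reads in 3 libraries. Mki67 thus stood above Top2a (0.185 ± 0.119 CPM per kb), the topoisomerase that untangles sister chromatids. Top2a was low but had reads in every library (0.555 to 3.81 CPM), while Cdk1 had reads in only 3. Without Mki67, Aurkb and Bub1b, chosen here after their values were seen, the other 16 mitosis genes together held 6.97 to 22.3 CPM a library.

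**Figure D2:**
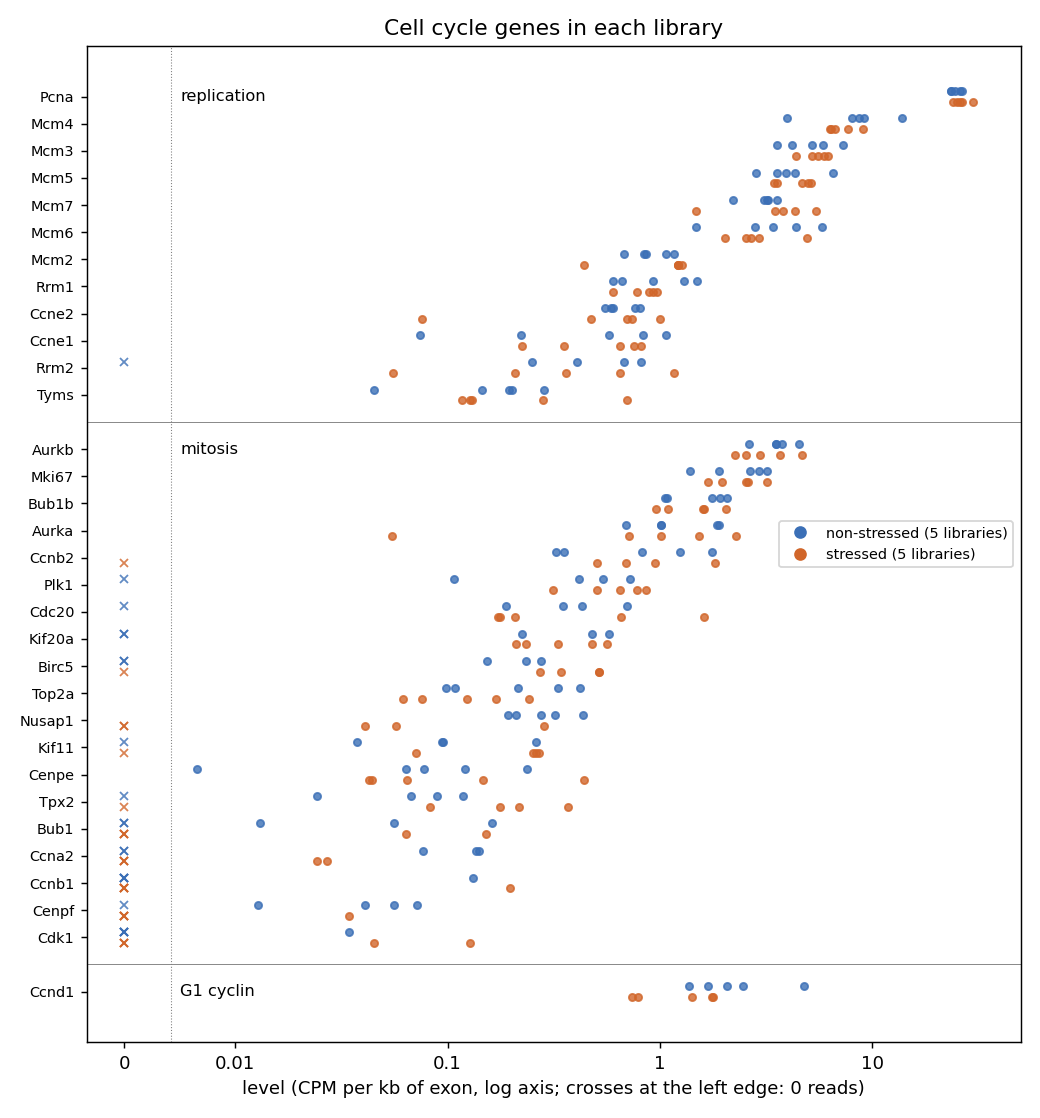
Level of each of the 32 genes (CPM per kb of exon, log axis) in 5 non-stressed (blue) and 5 stressed (orange) libraries; crosses at the left edge are libraries with 0 reads. Replication genes run from Pcna down to Tyms, mitosis genes from Aurkb down to Cdk1, and the colours overlap in every row.

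No member passed the test between the groups. The edgeR quasi-likelihood test, with Benjamini-Hochberg adjustment over 13334 genes, called 0 of the 27 members it tested (12 replication, 14 mitosis, Ccnd1). The background is 0.00750% called over all genes (1 gene). At an unadjusted p under 0.05 it held 1 member, Ccnd1, lower in the stressed libraries; that is 3.70% of the 27, near the 2.95% of all genes lower at that level. At the same level 0 members were higher, against 2.59% of all genes. DESeq2 and limma-voom also called 0 members. For none of the 32 did the groups separate, a separation found for 0.607% of tested genes with the stressed group on top and for 0.487% with it below. Ccna2, Ccnb1, Cdk1, Bub1 and Cenpf did not pass the filter on low counts.

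For 4 of the 6 helicase genes, Mcm3, Mcm4, Mcm5 and Mcm6, both the highest and the lowest library were non-stressed. Mcm4 (ENSMUSG00000022673, chromosome 16) stood at 49.5, 31.1, 32.8, 14.3 and 28.8 CPM in non-stressed replicates 1 to 5 and at 23, 32.6, 22.7, 24 and 27.5 CPM in stressed replicates 1 to 5 (log2 fold change -0.26, SE 0.23, adjusted p = 0.951). Mcm6 (ENSMUSG00000026355, chromosome 1) stood at 27, 20.5, 13.1, 6.88 and 16 CPM and at 23, 12.5, 9.43, 13.6 and 11.8 CPM (log2 fold change -0.24, SE 0.31, adjusted p = 0.969). For both genes non-stressed replicate 1 was the highest library and non-stressed replicate 4 the lowest, so the stressed values fell inside the non-stressed range. Mcm3 had 19.6 ± 5.52 CPM without stress and 20.4 ± 2.64 CPM with stress (SD, n = 5 each, log2 fold change 0.062, SE 0.18, adjusted p = 0.993), and Mcm5 had 16.9 ± 5.55 CPM without stress and 17.5 ± 3.23 CPM with stress (SD, n = 5 each, log2 fold change 0.056, SE 0.21, adjusted p = 0.996). For all 4 of these helicase genes the stressed range lay inside the non-stressed range.

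Mcm2 and Mcm7 had one low stressed library in common. Mcm2 stood at 5.87, 8.08, 7.40, 4.72 and 6.02 CPM in non-stressed and 3.05, 8.48, 8.49, 8.88 and 8.43 CPM in stressed replicates 1 to 5 (log2 fold change 0.22, SE 0.29, adjusted p = 0.971). Mcm7 stood at 13.7, 14.3, 15.8, 9.78 and 14.2 CPM and 6.55, 24, 15.4, 16.9 and 19.3 CPM (log2 fold change 0.28, SE 0.26, adjusted p = 0.955). Stressed replicate 1 was the lowest of all 10 libraries for both, and the other 4 stressed libraries lay in the upper part of the range. Without it their log2 fold changes were 0.42 and 0.48. Exons of Mcm7 share 321 bases with Ap4m1 and 64 with Cops6 on the opposite strand; the strand setting of the counting is not stated, which leaves its count uncertain.

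Pcna was the steadiest member. It stood at 56.6, 62.6, 56.4, 58.7 and 63.8 CPM in non-stressed and 59.96, 58, 63.8, 62.3 and 71.9 CPM in stressed replicates 1 to 5 (log2 fold change 0.089, SE 0.091, adjusted p = 0.961). The 95% interval of its fold change ran from 0.930 to 1.22. Rrm1, the large subunit of ribonucleotide reductase, had 11 ± 4.29 CPM without stress and 9.18 ± 1.63 CPM with stress (SD, n = 5 each, log2 fold change -0.25, SE 0.26, adjusted p = 0.961). Rrm2, the subunit whose supply limits the enzyme in S phase, had 0 reads in non-stressed replicate 4 and at most 3.23 CPM elsewhere (log2 fold change 0.18, SE 0.99, adjusted p = 0.998). Tyms, the thymidylate synthase gene, reached 4.27 CPM in stressed replicate 5 and 0.275 to 1.74 CPM in the others (log2 fold change 0.65, SE 0.73, adjusted p = 0.963). Without that library its log2 fold change was -0.093.

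The E cyclins, which activate CDK2 at the start of S phase, were low. Ccne1 ranged from 0.198 to 2.83 CPM (median 1.53) in non-stressed and 0.600 to 2.17 CPM (median 1.73) in stressed libraries (log2 fold change 0.032, SE 0.72, adjusted p = 0.999). Ccne2 ranged from 1.93 to 2.83 CPM (median 2.09) and 0.266 to 3.51 CPM (median 2.45; log2 fold change -0.13, SE 0.56, adjusted p = 0.996). The 95% intervals of both allow a 2-fold change either way. Exons of Ccne2 share 609 bases with Ints8, an opposite-strand gene with 10492 reads against the 610 of Ccne2.

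Mki67 (ENSMUSG00000031004, chromosome 7 from 135689784 to 135716361, minus strand, mm10) did not differ detectably. It stood at 32, 14, 19.2, 29.6 and 26.9 CPM in non-stressed and 32.3, 19.8, 17, 25.7 and 26.3 CPM in stressed replicates 1 to 5. Its means were 24.3 ± 7.54 CPM without stress and 24.2 ± 5.98 CPM with stress (SD, n = 5 each), with a fold change between 0.722 and 1.38 (95% interval; adjusted p = 0.9999). The highest and the lowest library differed by a larger factor than that interval spans, and both extremes of the order held libraries of either group. Top2a stood at 3.00, 0.889, 1.93, 3.81 and 0.974 CPM and 1.11, 2.17, 0.555, 1.52 and 0.686 CPM (log2 fold change -0.80, SE 0.62, adjusted p = 0.950). Non-stressed replicate 4 was the highest library for Top2a, and the groups overlapped.

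Of the cyclin and kinase genes that start mitosis, Cdk1, Ccnb1 and Ccna2 were close to absent, and Ccnb2 was found in 9 of 10 libraries. Cdk1 (chromosome 10) had 29 reads in 3 of 10 libraries: 6 in non-stressed replicate 3, 4 in stressed replicate 3 and 19 in stressed replicate 4. Ccnb1, the main mitotic cyclin, had 34 reads in 2 libraries, 16 in non-stressed replicate 5 and 18 in stressed replicate 1. No library held reads of both genes. Ccna2, the cyclin of S and G2, had 54 reads in 5 libraries, at 0.575, 0.312 and 0.557 CPM in non-stressed replicates 2, 3 and 5 and 0.111 and 0.0994 CPM in stressed replicates 3 and 4. Exosc9, which shares 510 exon bases with Ccna2 on the opposite strand, had 4411 reads. Ccnb2 ranged from 0 to 2.80 CPM over both groups (log2 fold change -0.18, SE 0.94, adjusted p = 0.998). Its transcribed pseudogene Ccnb2-ps held 499 reads in 9 libraries against 329 of Ccnb2, so the split of reads between them is uncertain.

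The Aurora and Polo kinases showed no detectable difference. Aurkb stood at 7.75, 10.4, 13.3, 10.4 and 11.1 CPM in non-stressed and 7.48, 10.9, 6.66, 8.68 and 13.8 CPM in stressed replicates 1 to 5 (log2 fold change -0.15, SE 0.23, adjusted p = 0.976). Aurka, the kinase of the spindle poles, stood at 4.72, 2.56, 1.76, 4.83 and 2.57 CPM and 0.138, 1.82, 2.55, 5.77 and 3.85 CPM (log2 fold change -0.21, SE 0.63, adjusted p = 0.993). The lowest value of Aurka, in stressed replicate 1, was 3 reads, where the other libraries had 41 or more. Tpx2, which activates Aurora A on the spindle, had at most 1.73 CPM (log2 fold change 1.49, SE 1.18, adjusted p = 0.950). Plk1 had 0.784 ± 0.659 CPM without stress and 1.36 ± 0.482 CPM with stress (SD, n = 5 each, log2 fold change 0.79, SE 0.91, adjusted p = 0.963), and Birc5 had 0.451 ± 0.438 CPM without stress and 1.12 ± 0.724 CPM with stress (SD, n = 5 each, log2 fold change 1.30, SE 1.23, adjusted p = 0.955). The non-stressed libraries without reads of Plk1 or Birc5 were replicate 1 for both and replicate 4 for Birc5. Stressed replicate 1 also had no reads of Birc5.

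Of the checkpoint and kinetochore genes, Bub1b had reads in every library, while Bub1, Cdc20 and Cenpf were missing from some. Bub1b had 6.73 ± 2.02 CPM without stress and 6.25 ± 1.87 CPM with stress (SD, n = 5 each, log2 fold change -0.10, SE 0.29, adjusted p = 0.991), whereas its partner Bub1 had 52 reads in 5 libraries and was not tested. Cdc20, which activates the anaphase-promoting complex, ran from 0 to 3.02 CPM (log2 fold change 0.75, SE 1.02, adjusted p = 0.971), with stressed replicate 2 highest; without it the log2 fold change was -0.14. Its exons share 53 bases with Elovl1, an opposite-strand gene with 23498 reads. Cenpe, the kinetochore motor, had at most 3.77 CPM, in stressed replicate 2 (log2 fold change 0.55, SE 0.93, adjusted p = 0.985); without that library its log2 fold change was -0.43. Cenpf, a kinetochore protein, had reads in 4 non-stressed libraries (0.628, 0.198, 0.864 and 1.11 CPM in replicates 2 to 5) and in 1 stressed library (0.533 CPM in replicate 2). With 97 reads in 5 libraries, Cenpf did not pass the filter on low counts and was not tested.

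Nusap1, which binds spindle microtubules, had the largest fitted decrease of the 27 members tested. It stood at 1.76, 0.785, 0.851, 1.30 and 1.11 CPM in non-stressed and 0, 1.15, 0.166, 0.232 and 0 CPM in stressed replicates 1 to 5 (log2 fold change -1.89, SE 1.11, adjusted p = 0.940). Stressed replicates 1 and 5 held no reads, but stressed replicate 2 lay inside the non-stressed range. Without that library the log2 fold change was -3.48, still not called. Its exons share 172 bases with Oip5, an opposite-strand gene with 22 reads. The kinesin genes Kif11, which keeps the spindle bipolar, and Kif20a, a motor of cytokinesis, reached at most 2.02 and 2.50 CPM. On the log2 scale the fitted difference was 0.81 for Kif11 (SE 1.13, adjusted p = 0.971) and 0.51 for Kif20a (SE 1.06, adjusted p = 0.987). Kif20a shares 1271 exon bases with Cdc23 on the opposite strand, which had 5858 reads.

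Ccnd1 (ENSMUSG00000070348, chromosome 7 from 144929931 to 144939925, minus strand, mm10) encodes cyclin D1, which links growth signals to the RB protein in G1. It stood at 11.7, 22.6, 7.91, 6.44 and 9.70 CPM in non-stressed and 8.31, 3.73, 3.50, 6.66 and 8.35 CPM in stressed replicates 1 to 5. Non-stressed replicate 2 lay far above the other 9 libraries, and the groups overlapped between 6.44 and 8.35 CPM. The log2 fold change was -0.92 (SE 0.35, unadjusted p = 0.0201 in edgeR, adjusted p = 0.874). Without non-stressed replicate 2 it was -0.54, and over the 20 fits run the adjusted p was never below 0.440. That library also held the highest summed level of the B cell markers (450.2 CPM) and of the dendritic cell markers (1818 CPM); with the B cell level as a covariate the value was -0.65. By reads of Ddx3y, a Y-linked gene, the libraries split into 6 with more than 100 (3 a group) and 4 with none (2 a group). The difference of mean log2(CPM + 1) of Ccnd1 was -1.09 in the 6 and -0.31 in the 4, beside -0.78 in all 10. Exons of Ccnd1 share 1100 bases with LTO1 on the opposite strand, which had 5097 reads.

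**Figure D3:**
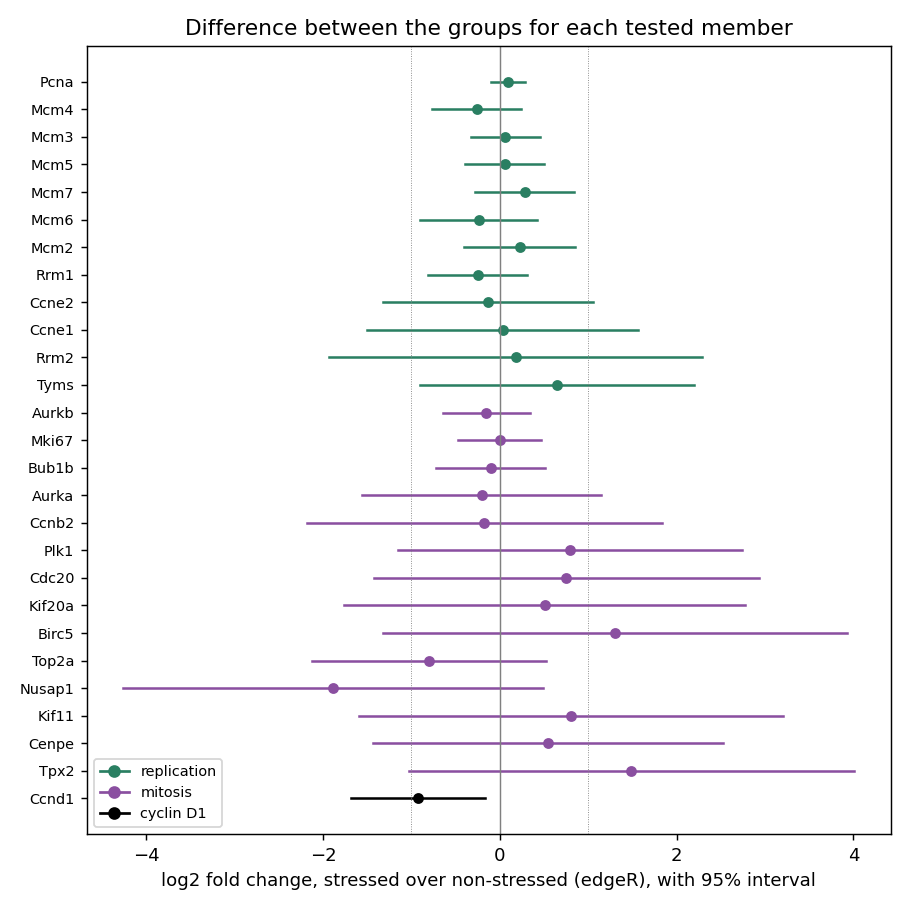
Log2 fold change of stressed over non-stressed libraries (edgeR, points) with its 95% interval (lines) for the 27 members tested; dotted lines mark a 2-fold change. Intervals are narrowest for Pcna and wide for most mitosis genes; that of Ccnd1 (-1.68 to -0.17) does not cross 0, but its adjusted p is 0.874.

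The 95% intervals of 11 members lay wholly within a 2-fold change either way: Mcm2 to Mcm7, Pcna, Rrm1, Mki67, Bub1b and Aurkb. The other 16 intervals reached beyond 2-fold, among them that of Ccnd1, which had more reads (2616) than Mcm2 (1905) or Bub1b (1799), and that of Tpx2 reached 16.1-fold. Of the replication members 8 had a fitted value above 0 and 4 below, with a median log2 fold change of 0.059; over all genes tested 6784 were above, 6550 below and the median was 0.0045. Of the mitosis members tested 8 lay above and 6 below, with a median of 0.25, which was -0.11 without stressed replicate 2. The replication median was -0.099 without non-stressed replicate 4. The median difference of log2(CPM + 1) in the 6 and the 4 libraries was 0.068 and -0.12 for replication (all 10: 0.084) and 0.15 and 0.15 for mitosis (all 10: 0.10). On the log2(CPM + 1) scale the medians in all 10 libraries were smaller than the spread between single libraries, 0.24 and 0.27 (SD of the libraries' median deviations). That SD is one of single libraries and not the error of a difference between group means.

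Single libraries differed more than the groups did, and the sets did not rank them alike. The summed level of the 12 replication genes was 224, 204, 175, 128 and 175 CPM in non-stressed and 175, 192, 165, 173 and 198 CPM in stressed replicates 1 to 5. The summed level of the 19 mitosis genes was 58.6, 43.8, 54.8, 62.8 and 58.3 CPM and 53.5, 61.7, 39.96, 58 and 59.9 CPM. Non-stressed replicate 1 was highest for 4 of the 12 replication genes and yet had no reads of 11 of the 19 mitosis genes. Non-stressed replicate 4 was lowest for 6 of the 12 replication genes and had the highest mitosis sum, of which Mki67 made up 29.6 CPM. The group means were 181 ± 36 and 181 ± 13.8 CPM for replication and 55.6 ± 7.21 and 54.6 ± 8.76 CPM for mitosis (SD, n = 5, non-stressed first). Both differences of means were far inside the spread of a group.

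**Figure D4:**
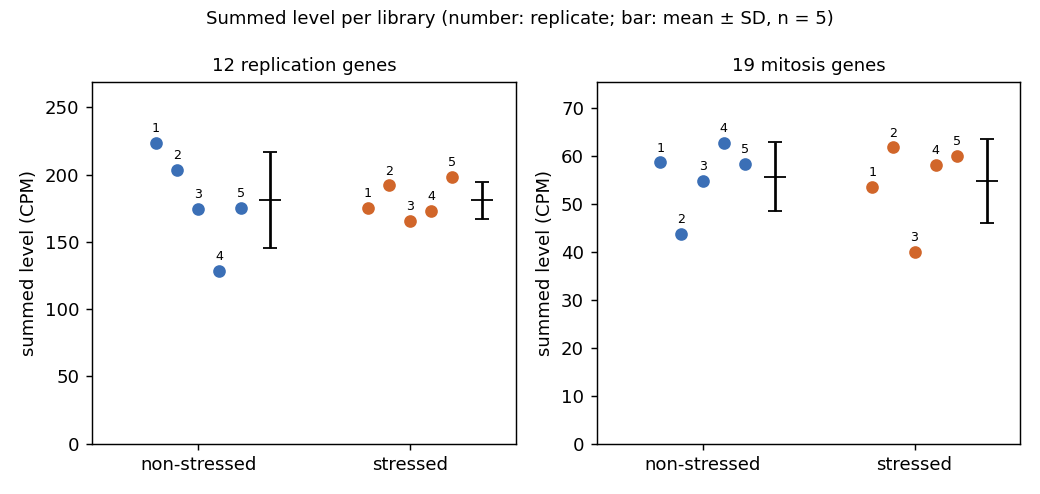
Summed level (CPM, vertical axis from 0) of the 12 replication genes (left) and the 19 mitosis genes (right) in each library; numbers are replicates and the bar is the mean ± SD (n = 5). Non-stressed replicates 1 and 4 are the highest and the lowest for replication, and stressed replicate 3 is the lowest for mitosis.

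Markers of other blood cells varied between the same libraries. The summed level of 10 B cell markers was 363, 450.2, 184, 88.3 and 155 CPM in non-stressed and 248, 268, 111, 226 and 152 CPM in stressed replicates 1 to 5. Non-stressed replicates 1 and 2, with the highest replication sums, were highest and non-stressed replicate 4, with the lowest, was lowest, but stressed replicate 5 had the highest replication sum of its group and the next to lowest B cell level in it. The 12 T and NK cell markers held 23 to 148 and 15.4 to 109.6 CPM. In edgeR the fitted values of all 10 B cell genes lay below 0 (median log2 fold change -0.36). Of the 12 T and NK cell genes 9 lay below 0 and 3 above (median -0.58). For both lists 0 genes were called, and 0 had an unadjusted p under 0.05 in edgeR. The 8 markers of neutrophil and monocyte precursors held 10.2, 18.7, 11.7, 7.35 and 17.4 CPM in non-stressed and 34.8, 42, 23.6, 18 and 20.4 CPM in stressed replicates 1 to 5, so that the groups overlapped only between 18 and 18.7 CPM. Of this list 5 genes were tested in edgeR, 4 with fitted values above 0 (median log2 fold change 0.82), and 0 were called. At an unadjusted p under 0.05 in edgeR 1 gene of this list was higher, against 2.59% of all genes. Its defining genes stood at up to 0.629 CPM without stress and 1.60 CPM with stress for Elane, and 0.209 and 0.572 CPM for Mpo. The part of these cells in the member levels was not tested beyond the B cell covariate, with which 0 members were called and the replication median was 0.18. The defining gene Ms4a1 reached 65.5 CPM, Cd3e and Ncr1 13.1 and 4.58 CPM, and Kit and Cd34 of progenitor cells 1.72 and 2.68 CPM. The summed ranges of the other lists, non-stressed before stressed, were 447 to 515 and 415 to 501 CPM for plasma cells (Jchain in 1 library only, Sdc1 up to 11 CPM) and 43.1 to 65 and 43.7 to 72 CPM for stem and progenitor cells. Erythroid markers held 1343 to 2799 and 1179 to 5538 CPM (Slc4a1 up to 11.2), and neutrophil markers 811 to 2590.4 and 1080.3 to 2363 CPM (S100a8 up to 567, Csf3r up to 969). In edgeR 7 of 8 erythroid genes tested had fitted values above 0 (median log2 fold change 0.68), and 0 were called. Of these genes 5 were higher at an unadjusted p under 0.05, against 2.59% of all genes. For neutrophils 7 of 10 genes tested lay above 0 (median 0.14), and 0 were called (smallest adjusted p in edgeR 0.349). At an unadjusted p under 0.05 in edgeR 1 neutrophil gene was higher. For 1 neutrophil gene the stressed group lay wholly above the other, a separation found for 0.607% of all genes. Of 10 dendritic cell genes tested 9 lay below 0 (median -0.41), and 0 were called. At an unadjusted p under 0.05 in edgeR 3 of them were lower, against 2.95% of all genes. Dendritic cell markers held 839.9, 1818, 765, 841 and 592 CPM in non-stressed and 659, 615, 493, 622 and 451 CPM in stressed replicates 1 to 5 (Zbtb46 up to 7.94, Xcr1 up to 2.04), monocyte and macrophage markers 22177 to 34195 and 26825 to 34152 CPM. Endothelial markers held 19.2 to 45 and 18.9 to 47.5 CPM, and those of smooth muscle and fibroblasts 11.9 to 22.1 and 14.9 to 21 CPM (Myh11 in 2 libraries, Pdgfra in 1).

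The wider machinery of division, 171 further genes in 12 lists, likewise held no called gene. Of these, 147 were tested, with 66 fitted values above 0 and 81 below (median -0.023); 2 had an unadjusted p under 0.05 in edgeR, both lower, which is 1.36% against 2.95% of all genes, and 0 were higher against 2.59%. DESeq2 and limma-voom called 0 of them.

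The lists of DNA replication had median log2 fold changes between -0.047 and 0.19. Origin licensing and firing had 8 of 17 tested genes above 0 (median -0.0079), with Mcm10, which helps to start the helicase, at 0.63 (SE 0.43) and the origin recognition genes Orc6 at 0.41 (SE 0.26) and Orc2 at -0.18 (SE 0.13). Of the fork genes 8 of 23 lay above 0 (median -0.036), with Rpa2 of the single-strand binding complex at 0.30 (SE 0.18), the clamp loader gene Rfc4 at 0.55 (SE 0.37) and Topbp1 at -0.13 (SE 0.097). Of the nucleotide supply genes 6 of 9 lay above 0 (median 0.19). Dck, the salvage kinase for deoxycytidine, was 1 of the 2 genes with a small p, at 199.8 ± 17.7 CPM without stress and 167 ± 26.1 CPM with stress (SD, n = 5 each, log2 fold change -0.25, SE 0.10, adjusted p = 0.874; unadjusted p = 0.0273 in edgeR). Its groups overlapped. The chromatin copying list had 2 of 6 above 0 (median -0.047), with the maintenance methyltransferase gene Dnmt1 at -0.030 (SE 0.15).

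The control genes of G1 showed no called difference either. E2f2, a transcription factor of the E2F family, stood at 202 to 259 CPM over all libraries (log2 fold change -0.11, SE 0.074, adjusted p = 0.949). Rbl1, which encodes the RB relative p107, had 41.4 ± 4.91 CPM without stress and 34.6 ± 4.90 CPM with stress (SD, n = 5 each, log2 fold change -0.25, SE 0.12, adjusted p = 0.895). Their list had 6 of 18 genes above 0 and a median of -0.11. Cdkn1b, the inhibitor p27 of resting cells, stood at 148 to 236 CPM (log2 fold change -0.092, SE 0.12, adjusted p = 0.968), and Cdkn2d, the inhibitor p19, at 54 to 104 CPM (log2 fold change 0.20, SE 0.15, adjusted p = 0.950). The CDK inhibitors had 3 of 5 tested genes above 0 (median 0.026). Klf4, a factor that restrains division and is also high in monocytes, stood at 309 to 391 CPM (log2 fold change 0.081, SE 0.074, adjusted p = 0.955); its list of quiescence genes had 3 of 8 above 0 (median -0.023). Among G1 cyclins and kinases 3 of 6 lay above 0 (median -0.036), and Ccnd2, the relative of Ccnd1, ranged from 5.53 to 38.8 CPM (log2 fold change -0.77, SE 0.47, adjusted p = 0.943).

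Among the further lists, those of the kinetochore and of the kinesins had the lowest shares of genes tested. Of the kinetochore and checkpoint genes 13 of 23 were tested, 6 above 0 (median -0.035), with Incenp, the scaffold that holds Aurkb and Birc5, at 24.1 to 43 CPM (log2 fold change 0.22, SE 0.14, adjusted p = 0.940). Of the kinesins and cytokinesis genes 9 of 15 were tested, 6 above 0 (median 0.042), with Anln, the anillin of the contractile ring, at 2.85 ± 0.326 CPM without stress and 4.55 ± 1.56 CPM with stress (SD, n = 5 each, log2 fold change 0.68, SE 0.33, adjusted p = 0.895). Condensin, cohesin and separase genes had 7 of 15 above 0 (median -0.019), with the cohesin gene Stag2 at -0.16 (SE 0.075, adjusted p = 0.893). Ncaph, a condensin gene, was the 1 gene of the further lists with the stressed group wholly above the other (a separation found for 0.607% of all genes), at 0.346 ± 0.252 CPM without stress and 1.08 ± 0.234 CPM with stress (SD, n = 5 each; log2 fold change 1.62, SE 0.91, adjusted p = 0.940); it was singled out after its values were seen. Genes of mitotic entry and the anaphase-promoting complex had 8 of 18 above 0 (median -0.014). Anapc1, the largest subunit of that complex, stood at 138, 116, 125, 136 and 112 CPM in non-stressed and 105, 104, 98.9, 99.1 and 104 CPM in stressed replicates 1 to 5. The groups did not overlap, with the stressed one lower as for 0.487% of all genes, but the difference did not pass (log2 fold change -0.29, SE 0.079, adjusted p = 0.684; unadjusted p = 0.00234 in edgeR).

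**Figure D5:**
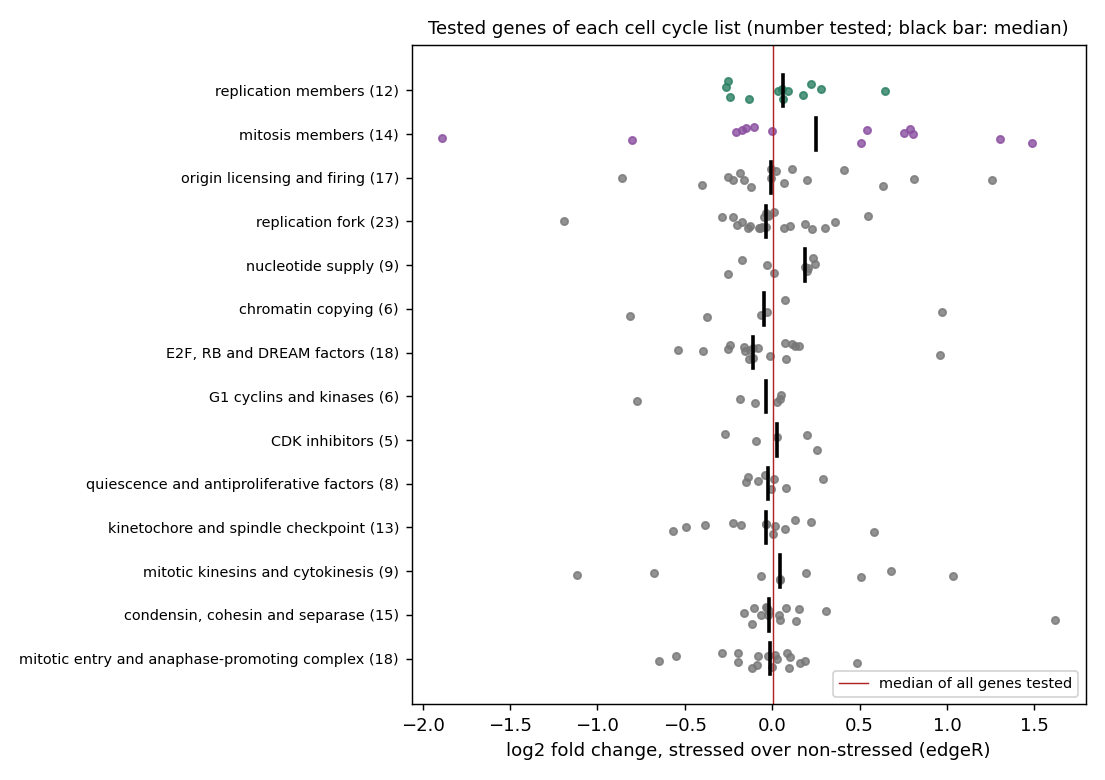
Log2 fold change of stressed over non-stressed libraries (edgeR, horizontal axis) for each tested gene of the replication and mitosis members and the 12 further lists, with the list median (black bar) and the median of all genes tested (red line). Medians lie between -0.11 (E2F, RB and DREAM factors) and 0.25 (mitosis members), and no gene shown was called.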

How the data were processed

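Per the labels' protocols, a PicoPure kit gave the RNA and a TruSeq Stranded kit the libraries. Trimmomatic, STAR and featureCounts were used with build mm10, per the submitters' processing notes. Versions, strand setting and gene annotation were not given in the sources used here. The authors deposited raw read counts per gene, not normalized. Of 48526 identifiers 48058 matched a symbol in GENCODE vM21 (mm10). Groups and replicate numbers came from the titles. Pairs of libraries within a group were compared by chi-square, which was 21.3 to 70.5 per degree of freedom, so none was a duplicate.

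Deposited counts were tested with edgeR 4.0.16 (R 4.3.3): default filterByExpr (minimum count 10; 13334 genes kept, 99.9% of counts), TMM factors, a term for group, and the quasi-likelihood test, with p-values adjusted over all genes (Benjamini-Hochberg, threshold 0.05). A standard error is the fold change divided by the square root of F. Levels are CPM of the plain total. On simulated counts for this comparison (12866 genes tested) the test recovered 38.8%, 62.7% and 81.8% of genes changed 1.5-, 2- and 4-fold, with 4 false calls. The simulated spread followed the mean level alone, and recovery was averaged over genes of all levels. Recovery for genes with few reads, such as many mitosis members, was not worked out. Alternatives were DESeq2 1.42.0, limma-voom with quality weights (limma 3.58.1), RLE or upper-quartile factors, 2 other filters, the replicate number as a block, 2 covariates and leaving out each library. Members, lists and tests were chosen with earlier results of these data known. All 32 members were named, up to 3 genes of each further list with the smallest p among those averaging 1 log2 CPM or more, any called gene, and the defining markers; not every named gene or marker is printed, and some are not reported here. Of the list symbols, 3 older synonyms matched no identifier.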

Additional observations from a re-analysis of the deposited data

Results flagged for a closer look

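In 8 of 64 groups of 5 libraries (32 members in each condition), 1 library stood apart from the other 4 by more than 0.71 of the whole range. For independent groups of normally spread values this limit flags about 1 in 20, or 3.2 of 64. These members share libraries, and the flags of Ccnb1, Cdk1 and Cenpf arise because the other 4 libraries held 0 reads. The count of 8 can therefore not be set against that rate. Mcm2 was lowest in stressed replicate 1, at 3.05 CPM with the next library at 8.43 CPM. Tyms was highest in stressed replicate 5 (4.27 CPM, next 1.71 CPM). Stressed replicate 2 held the highest level of Cenpe (3.77 CPM, next 1.26 CPM), of Cenpf (0.533 CPM, the others at 0) and of Nusap1 (1.15 CPM, next 0.232 CPM). Ccnb1 had reads in non-stressed replicate 5 alone of its group (0.557 CPM) and in stressed replicate 1 alone of its group (0.831 CPM). Cdk1 had reads in non-stressed replicate 3 alone of its group, at 0.170 CPM.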

How the results depend on the processing

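The count of 0 called members held for replication, mitosis and the 12 further lists in all 9 alternative settings and in all 10 fits without 1 library. The count of genes called over the whole table was 1 in the reported fit, 10 without a low-count filter, 4 with the B cell covariate, 19 with DESeq2 and 2 with limma-voom; it ran from 1 to 2 with single libraries left out. With the replicate number as a block 4 genes were called, 0 of them members; deviations of same-numbered libraries correlated at 0.13, 0.16, -0.027, 0.12 and 0.12 for numbers 1 to 5, not over 0.1 for each, so the numbers were not taken to pair the samples, and not every library correlated best with its own number. Ddx3y had 0 reads in numbers 1 and 5 and over 100 in numbers 2 to 4 of both groups.

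With a filter of at least 1 CPM in 5 libraries, which tests fewer genes, the mitosis median was -0.13; it ran from -0.11 to 0.36 without single libraries, and the replication median from -0.099 to 0.16. In the 9 settings 228 member fold changes kept their sign and 9 did not, none of them called: Mcm6 was 0.023 with the B cell covariate, Ccnb2 0.035 with the Ddx3y covariate, and Mki67 -0.0021 with RLE and -0.0045 with upper-quartile factors, -0.0024 without a filter, -0.0025 with the 1 CPM filter, -0.0014 and -0.012 with the covariates and -0.0032 with DESeq2. Without single libraries 12 members changed sign, over ranges of -0.26 to 0.40 (Ccne1), -0.41 to 0.15 (Ccne2), -0.047 to 0.21 (Mcm3), -0.056 to 0.25 (Mcm5), -0.44 to 0.53 (Rrm2), -0.093 to 0.89 (Tyms), -0.15 to 0.11 (Mki67), -0.74 to 0.21 (Ccnb2), -0.14 to 1.21 (Cdc20), -0.26 to 0.011 (Bub1b), -0.64 to 0.096 (Aurka) and -0.43 to 1.12 (Cenpe). The cause was not tested. The 16 members whose intervals reach beyond 2-fold are not shown to be unchanged.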

Other observations

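Of the 4 members with 20 to 60 reads over all libraries (Ccnb1, Ccna2, Cdk1 and Bub1), all 4 had 0 reads in 5 or more of the 10 libraries. The same held for 84.8% of the 2793 genes of the table with such totals, so the members are near that background.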
